A study of Homo sapiens with 2 samples.

Results

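Heat shock chaperones of the cytosol and mitochondria were followed in A549-NICD1 and A549-Vector cells as a readout of stress outside the endoplasmic reticulum (ER). The group held 10 genes, taken by symbol from the 19198 genes with a usable name in the tables, and all 10 were found. A549-NICD1 cells overexpressed NICD1, the intracellular domain that is released when the NOTCH1 receptor is activated, and A549-Vector cells carried the vector. Below, their libraries are also called those under NICD1 and under the vector. Both are labelled A549, a human line established from a lung adenocarcinoma, and per the study's methods its stable lines were made by viral infection and antibiotic selection. Neither the labels nor the methods say whether the sequenced cultures were single clones or pools. PolyA RNA was sequenced from 1 library per condition, so the spread between cultures is unknown, no p-value is given, and "higher" and "lower" describe these libraries only. Levels are FPKM as deposited, a unit in which reads are scaled by the length of the gene and the depth of the library.

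Heat shock proteins hold unfolded proteins in a state from which they can refold. HSP70 chaperones bind short exposed stretches in a cycle driven by ATP, in which J-proteins deliver the client and nucleotide exchange factors release it. Small heat shock proteins keep unfolded clients soluble without using ATP, HSP90 acts late on kinases, receptors and other clients, and the mitochondrial chaperonin folds proteins after import. After heat or another insult to proteins of the cytosol, heat shock factor 1 (HSF1) binds inverted repeats of GAA upstream of many of these genes, and strongly inducible members such as HSPA1A, HSPA1B, DNAJB1 and HSPA6 are classic markers of the response. Many of the same genes are also abundant without stress in fast-growing lines.

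The overexpressed gene, NOTCH1, stood at 5.40 FPKM under the vector and at 2865 FPKM under NICD1. RFC4, a subunit of the clamp loader of DNA replication and a gene the study followed, stood at 39.5 FPKM under the vector and at 4075 FPKM under NICD1, where it ranked 1 among all genes. The depths behind the FPKM values were 48602848 reads in A549-Vector and 48528434 in A549-NICD1. Of 16 genes generally high in A549 cells, 8 were under 1 FPKM in both libraries, and KRT7, FGA and FGB were listed at 0 in both. Of 7 genes generally high in HEK293, a line from human embryonic kidney, 6 reached 1 FPKM in both, and the 7 summed to 236 FPKM under the vector and 223 FPKM under NICD1, so the libraries are named by their labels only.

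The chaperone genes did not move as a group. The log2 ratio of A549-NICD1 over A549-Vector, taken after a scaling factor of 0.958 for A549-NICD1, had a median of 0.079 over the 10 genes, against 0.00097 over the 12263 genes with a mean of at least 1 FPKM. Over the 4268 genes with a mean of at least 20 FPKM, a level all 10 reached, the median was 0.033. Of these 4268 genes, 54.2% had a ratio above that of HSPE1, 0.019, so more of them lay above 0 than of the 12263. A total of 7 genes had a ratio above 0, as did 50.2% of the 12263 genes, and with the FPKM as deposited 5 genes did, as did 36.7%. None of the 10 lay above 0.5 or below -0.5, where 2.72% and 3.39% of the 12263 genes lay, so none reached a 2-fold difference. The genes did differ from each other by more than counting error. HSPA8, BAG3 and HSPH1 were higher in A549-NICD1, HSPB1, HSPA1A and HSPA1B were lower, and DNAJB1, HSPD1, HSP90AA1 and HSPE1 lay between 0.019 and 0.12. The 10 genes together held 0.623% of all FPKM under the vector and 0.636% under NICD1.

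The cytosolic HSP70 genes went in opposite directions. HSPA8 (GENCODE 29 on hg38, chromosome 11, 123057489 to 123063230) encodes the constitutive HSP70, HSC70, which serves folding and protein transport in unstressed cells. It stood at 432 FPKM under the vector and at 566 FPKM under NICD1. This is a log2 ratio of 0.45 (95% counting interval 0.43 to 0.47), or 1.37-fold, and 96.6% of the 12263 genes had a lower ratio. HSPA1A (chromosome 6, 31815464 to 31817946), which encodes the stress-inducible HSP70, stood at 312 FPKM under the vector and at 248 FPKM under NICD1. Its log2 ratio was -0.27 (interval -0.30 to -0.25), and 88.7% of genes had a higher one. Its neighbour HSPA1B (chromosome 6, 31827735 to 31830255), which encodes almost the same protein, was at 212 FPKM and 187 FPKM, a log2 ratio of -0.12 (interval -0.15 to -0.097).

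In A549-Vector the inducible pair exceeded the constitutive gene, and in A549-NICD1 it did not. The summed level of HSPA1A and HSPA1B was 1.22 times that of HSPA8 in A549-Vector and 0.768 times in A549-NICD1. The sum of these 3 HSP70 genes came to 956 FPKM under the vector and 1000.24 FPKM under NICD1, so the total differed less than its makeup. HSPA1A and HSPA1B cannot be read apart with certainty. Of the 100-base windows in the longest HSPA1A transcript, 69.9% also occur in HSPA1B, and how the authors counted such reads is not given in the sources used here. The ratio of HSPA1A to HSPA1B was 1.47 under the vector and 1.33 under NICD1, and the pair summed had a log2 ratio of -0.21. For HSPA8 no window (0%) occurred in another gene.

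Of the HSP70 partners, the nucleotide exchange factors were higher in A549-NICD1 and the J-protein differed little. BAG3 (chromosome 10, 119651370 to 119677819) couples HSP70 to small heat shock proteins and to selective autophagy. It stood at 28.4 FPKM under the vector and at 37.6 FPKM under NICD1. The log2 ratio of 0.46 (interval 0.40 to 0.53), or 1.38-fold, was the highest of the 10 genes, and 96.8% of the 12263 genes had a lower one. HSPH1 (chromosome 13, 31134974 to 31162388), the HSP110 exchange factor that takes part in disaggregation, was at 51.2 FPKM and 59.5 FPKM, a log2 ratio of 0.28 (interval 0.24 to 0.31). DNAJB1 (chromosome 19, 14514770 to 14529770), the HSP40 that starts the HSP70 cycle on misfolded clients and is itself strongly heat-inducible, stood at 46.6 FPKM under the vector and at 48.6 FPKM under NICD1. Its log2 ratio of 0.12 (interval 0.066 to 0.18) had 25.2% of genes above it.

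HSPB1 (chromosome 7, 76302544 to 76304295), which encodes the small heat shock protein HSP27, stood at 91.6 FPKM under the vector and at 62.7 FPKM under NICD1. The log2 ratio of -0.49 (interval -0.56 to -0.42), or 0.714-fold, was the lowest of the 10 genes, and 96.3% of the 12263 genes had a higher one. With the FPKM taken as deposited the log2 ratio was -0.55, and with scaling by the upper quartile it was also below -0.5. BAG3, the partner of small heat shock proteins, thus stood at 0.310 times the level of HSPB1 under the vector and at 0.600 times under NICD1.

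HSP90AA1 (chromosome 14, 102080738 to 102139699), the inducible cytosolic HSP90, was the most abundant of the 10 genes in both libraries. It stood at 801 FPKM under the vector and at 788 FPKM under NICD1 and ranked 43 and 44 among all genes. Its log2 ratio was 0.038 (interval 0.00097 to 0.075) after scaling and -0.024 with the FPKM as deposited, so that its direction depends on the scaling. HSP90AB1, the constitutive partner gene, was at 965 FPKM and 985 FPKM, and HSP90AA1 stood at 0.830 and 0.80 times its level.

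The mitochondrial chaperonin genes differed little between the libraries. HSPD1 (chromosome 2, 197486581 to 197516737, minus strand) encodes HSP60, whose rings enclose the client, and HSPE1 (chromosome 2, 197499994 to 197503457, plus strand) encodes the HSP10 lid, and both genes start close together in opposite directions. HSPD1 stood at 404 FPKM under the vector and at 421 FPKM under NICD1, a log2 ratio of 0.12 (interval 0.10 to 0.14). HSPE1 was at 24.6 FPKM and 23.8 FPKM, a log2 ratio of 0.019 (interval -0.10 to 0.14), which became -0.043 with the FPKM as deposited and -0.0069 with scaling by the upper quartile. HSPD1 stood at 16.4 times the level of HSPE1 under the vector and 17.7 times under NICD1, per length. Of the 950 bases of the transcript HSPE1-201, 20.2% lie in exons of the readthrough gene HSPE1-MOB4, which was listed at 0 in both libraries, and 17.04% of its 100-base windows occur in another gene, pseudogenes included. Exons of HSPD1 or HSPE1-MOB4 held 23.9% of all exon bases of HSPE1. The part of these overlaps in the low level of HSPE1 was not tested.

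Genes of high level varied less, which sets the outer members further apart from the rest. The middle 90% of the 4268 genes with a mean of at least 20 FPKM had log2 ratios from -0.22 to 0.29, against -0.43 to 0.36 for all 12263 genes. Among these 4268 genes, 98.3% had a lower ratio than BAG3, 98.2% a lower one than HSPA8, and 94.3% a lower one than HSPH1. HSPB1 had a lower ratio than 99.4% of them, and HSPA1A a lower one than 96.7%. HSP90AA1 and HSPE1 lay in the middle, with 51.6% and 45.8% of these genes below them.

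The order of the 10 genes by level was the same in both libraries, namely HSP90AA1, HSPA8, HSPD1, HSPA1A, HSPA1B, HSPB1, HSPH1, DNAJB1, BAG3 and HSPE1. Neighbours in this order were apart by more than counting error in A549-Vector. The order also depends on the gene lengths used, and for HSPA1A and HSPA1B on how shared reads were counted. In A549-NICD1 the counting intervals of HSPB1 (60.3 to 65.1 FPKM) and HSPH1 (58.5 to 60.4 FPKM) overlapped, so these genes could not be ordered there. Behind the levels stood at least 1103 reads for HSPE1 and at least 61262 reads for HSPA8 in A549-NICD1, where the reads of a gene are known up to a whole-number factor and the smallest possible number was used, which makes the intervals wide rather than narrow. Intervals cover counting error only and say nothing of the variation between cultures.

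The factors that control the response lay between -0.12 and 0.18. HSF1, the main activator of the response, stood at 59.8 FPKM under the vector and at 64.8 FPKM under NICD1, a log2 ratio of 0.18, and HSF2 was at 25.7 and 27.0 FPKM, a log2 ratio of 0.13. HSBP1, which binds HSF1 and holds it back, was the lowest of the 4 factors, at -0.12. Among 9 further HSP70 and HSP110 genes, 7 had a mean of at least 1 FPKM. Of these, 4 were above 0 and 3 below, beside 50.2% of the 12263 genes above 0. The median log2 ratio of the 7 genes was 0.064. They ranged from HSPA14, a ribosome-associated member, at 0.24 to HSPA1L, which is mainly known from the testis, at -0.47, with 96.1% of the 12263 genes higher. HSPA6, an HSP70 gene that is nearly silent without heat, was close to the detection limit, with 0.0524 FPKM under the vector and 0.218 FPKM under NICD1, a log2 ratio of 1.11. The 0.1 FPKM added to each value exceeds the vector value and lowers this ratio, and the FPKM as deposited differed 4.17-fold. Both rest on 6 and 25 reads. The counting interval of the log2 ratio of reads, which leaves out the added 0.1, ran from 0.80 to 3.70.

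Counts above 0 in the next lists stand beside 50.2% of the 12263 genes above 0 after scaling and 36.7% with the FPKM as deposited. Both shares include genes of low level. Of genes with a mean of at least 20 FPKM, a larger share lay above 0 after scaling, since 54.2% exceeded HSPE1 at 0.019. Of 10 further J-proteins, 7 had a mean of at least 1 FPKM, 4 of them above 0, with a median log2 ratio of 0.066, from DNAJA1 at 0.25 to DNAJB4 at -0.13. HSP90 and its co-chaperones had 9 of 11 genes above 0 (8 with the FPKM as deposited) and a median of 0.094, with AHSA1, which stimulates the ATPase of HSP90, highest at 0.24 and UNC45A lowest at -0.064. Of the BAG proteins and other HSP70 cofactors, 6 of 8 were above 0 against 50.2% of the 12263 genes (2 with the FPKM as deposited, against 36.7%), with a median of 0.042, from HSPBP1 at 0.19 to STUB1, a ubiquitin ligase that works with HSP70, at -0.048. All 8 subunits of the cytosolic chaperonin TRiC were above 0 (7 with the FPKM as deposited, all but CCT3, against 36.7% of the 12263 genes), with a median of 0.11, from CCT3 at 0.050 to CCT2 at 0.25. The 10 genes of mitochondrial protein quality control had a median of 0.033, with 8 above 0 against 50.2% of the 12263 genes (4 with the FPKM as deposited, against 36.7%), from the exchange factor GRPEL1 at 0.23 to the protease LONP1 at -0.13. No gene of these lists with a mean of at least 1 FPKM lay beyond 0.5 in either direction.

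In the lists around the heat shock system, HSPB8 and IER5 lay above 0.5 and HMOX1 below -0.5, all with a mean of at least 1 FPKM. Of all 12263 genes, 2.72% lay above 0.5 and 3.39% below -0.5. Of 8 other small heat shock proteins, 6 were under 1 FPKM on average, and HSPB8, which binds BAG3, stood at 9.94 FPKM under the vector and at 18.4 FPKM under NICD1, a log2 ratio of 0.94 (interval 0.83 to 1.06). HSPB9, the other one above the minimum, had a log2 ratio of 0.28 (interval -0.34 to 0.96). Among 6 other heat-inducible genes, 4 were above 0, beside 50.2% of the 12263 genes, and the median of the 6 was 0.17. IER5, an immediate early gene, stood at 15.7 FPKM under the vector and at 27.9 FPKM under NICD1, a log2 ratio of 0.89. HMOX1, the haem oxygenase induced by oxidants as well as heat, was at 63.5 FPKM and 40.8 FPKM, a log2 ratio of -0.57.

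The ER chaperones, the group the heat shock genes were set against, differed more between the libraries. All 14 were above 0 under each of the 4 scalings. After the main scaling 9 were above 0.5, where 2.72% of the 12263 genes lay, and the median log2 ratio of the 14 was 0.55. With the FPKM as deposited the median was 0.49 and fewer of the 14 were above 0.5. HSPA5, the HSP70 of the ER, stood at 116 FPKM under the vector and at 243 FPKM under NICD1, a log2 ratio of 1.13. It was the one gene of the chaperone and heat shock lists with a mean of at least 1 FPKM that lay beyond 1, where 0.652% of the 12263 genes lay. The lowest was PDIA6 at 0.19. The lists were drawn up with earlier results of these data known, and the difference between them was not tested.

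Upstream sequence was compared next. The members were chosen by symbol as heat shock genes, many of them known for inverted repeats of GAA upstream. Their share of matches is therefore a description and not independent of that choice. In windows from 250 bases before to 50 bases after each annotated start (RefSeq, GRCh38.p14), the inverted pair of heat shock element units, GAANNTTC or TTCNNGAA, was searched. Each of these is its own reverse complement, so both strands were covered, and overlapping matches were counted. A match was found in at least 1 window for 7 of the 10 genes and for 16.2% of 27305 genes, and in 8 of the members' 14 windows against 13.5% of all 35116 windows. A run of 3 alternating units (GAANNTTCNNGAA or TTCNNGAANNTTC) was found for 3 of the 10, namely HSPA8, HSP90AA1 and HSPD1, and for 0.608% of all genes. HSPH1, BAG3 and HSPE1 had no match to these letters in the windows searched. The matches of HSPD1 lie just beyond the upstream end of the HSPE1 window. Of 13 ER chaperones with a window, 1 had a match.

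Sequence upstream of the RefSeq start is shown for the members with the 2 highest and the 2 lowest log2 ratios, 5′ to 3′, with the matches in capitals. GENCODE 29 starts these genes further upstream than RefSeq, and bases in its exons were left out, except around the matches of HSPA8, where its exons cover all 250 bases before the RefSeq start. The stretches lie at chr10:119651130-119651369 on the plus strand for BAG3, chr6:31815293-31815463 on the plus strand for HSPA1A and chr7:76302423-76302543 on the plus strand for HSPB1. For HSPA8 they are the 29 bases around each run of 3 units, at chr11:123062346-123062374 and chr11:123062171-123062199 on the minus strand.
BAG3: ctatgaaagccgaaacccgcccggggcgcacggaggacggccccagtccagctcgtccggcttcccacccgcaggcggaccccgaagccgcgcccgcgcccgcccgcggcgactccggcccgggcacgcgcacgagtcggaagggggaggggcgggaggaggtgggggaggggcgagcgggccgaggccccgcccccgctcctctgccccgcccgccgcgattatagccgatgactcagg
HSPA8, far run: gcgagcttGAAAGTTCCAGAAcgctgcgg
HSPA8, near run: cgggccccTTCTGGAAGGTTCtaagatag
HSPA1A: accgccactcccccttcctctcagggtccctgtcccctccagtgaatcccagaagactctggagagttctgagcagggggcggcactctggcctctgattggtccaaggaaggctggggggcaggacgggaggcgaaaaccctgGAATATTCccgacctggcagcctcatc
HSPB1: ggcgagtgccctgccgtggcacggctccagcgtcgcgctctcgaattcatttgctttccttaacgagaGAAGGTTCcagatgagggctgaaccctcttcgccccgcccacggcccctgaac

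The HSPA8 window holds a run of 3 units in 2 places, at -230 to -218 and at -55 to -43 bases from the RefSeq start. HSPA1A has 1 inverted pair, at -106 to -99, and HSPA1B has 1 at nearly the same place. HSPB1 has 1 pair, at -182 to -175. Genes with matches were thus found both among the higher and among the lower members, and BAG3, the highest, had none in its window. A match is a stretch of letters and was not measured as bound in these cells.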

How the data were processed

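Total mRNA of A549-NICD1 and A549-Vector cells was profiled by sequencing, with 1 library per condition, grouped by the genotype label. The authors deposited 1 value per gene and library, which the values themselves show to be FPKM, made by the authors from whole reads by dividing by a gene length and by the depth of the library. The unit is not named in the sources used here. The submitters' processing notes name Bowtie2, HTSeq and hg38, and give no version or annotation. The study describes the sequencing as strand-specific, and whether the counting used the strand is not given in the sources used here. Of 19225 rows, 27 named by a number only were left out.

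Depths were found from the values alone. Ratios of low genes between the libraries gave the ratio of depths, and the depth was the largest one at which read ratios gave whole gene lengths. At these depths 99.9% of 1619 genes tried gave whole reads, against 0.618% at a depth raised by 1.3 percent. The smallest whole reads per gene were used for 95% intervals, which were Clopper-Pearson for ratios and exact Poisson for levels.

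The log2 ratio was taken on FPKM plus 0.1, with A549-NICD1 scaled so that the mean log ratio, trimmed by 30% of ratios and 5% of levels at each end, was 0 over genes with a mean of at least 1 FPKM. This understates the difference of low genes. No test was run, since each condition had 1 library. Alternatives covered the scaling, the pseudocount, the filter and the HSPA1A and HSPA1B pair. The scripts were tested on simulated reads. Shared windows, exon overlaps and gene positions came from GENCODE 29, and upstream sequences from RefSeq, which had windows for all 10 genes. All 10 members were named, and of each other list the highest and lowest gene, genes beyond a log2 ratio of 1, HSF1, HSF2, HSPA6 and HSPA5. HSPB8, HSPB9, HSBP1, IER5, HMOX1 and HSP90AB1 were named under this rule or beside a member. The members and lists were chosen with earlier results of these data known. Python 3.11.15, NumPy 2.4.6, pandas 2.3.3, SciPy 1.17.1 and matplotlib 3.10.9 were used.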

Additional observations from a re-analysis of the deposited data

How the results depend on the processing

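No paired analysis was possible because the design has a single library on each side, and for the same reason no library could be left out. A total of 9 alternative settings were run, 8 planned and 1, recovered reads plus 0.5 in place of FPKM plus 0.1, chosen after seeing the data. The median log2 ratio of the 10 chaperone genes was 0.079 and became 0.018 with the FPKM as deposited, which shifts every ratio by -0.062, and 0.12 both without HSPA1A and HSPA1B and with the pair summed. The number of chaperone genes below -0.5 was 0 and became 1, HSPB1, with the FPKM as deposited and with scaling by the upper quartile. With the FPKM as deposited HSP90AA1 went to -0.024 and HSPE1 to -0.043, and with scaling by the upper quartile HSPE1 went to -0.0069. HSPA8 stayed between 0.39 and 0.45, BAG3 between 0.40 and 0.46, HSPB1 between -0.55 and -0.48 and HSPA1A between -0.33 and -0.27. Of 70 values of single genes, 56 stayed within their counting interval with the same sign, 11 moved outside it with the same sign and 3 changed sign, 2 of these, both of HSPE1, within the interval. Counting error is small at these depths, and the variation between cultures is unknown.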
